A study of Drosophila melanogaster with 6 samples.

Results

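Neuropeptides and peptide hormones are short signalling molecules cut from larger precursor proteins, packed into dense-core vesicles and released by neurons, gland cells and the enteroendocrine cells of the gut, and most of them act through G protein-coupled receptors on distant cells. In the *Drosophila* larva they govern feeding, water balance, energy stores, gut movement and the sequence of behaviours by which the old cuticle is shed. Here 32 precursor genes, chosen by symbol from a table of 17606 genes, were followed in RNA-seq of *ecd1* and *w1118* larvae, and each of the 32 symbols matched 1 row.

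Total RNA came from whole larvae of the third instar and 2 genotypes, with 3 samples of each genotype and 8 pooled larvae in each sample. The *ecd1* larvae were homozygous for a recessive, temperature-sensitive missense allele of *ecd*, which encodes the splicing and ecdysone synthesis factor Ecdysoneless. The *w1118* larvae served as controls. As the paper lists them, both stocks carry a mutation of the eye colour gene *white*. The paper describes a backcross of *ecd1* to *w1118* for its lifespan experiments and states none for these larvae. All larvae spent 10 days at 18°C and then 2 days at 29°C, a temperature that is restrictive for the allele, so every sample of both genotypes had been through the shift. Neither genotype was sampled without it, and the sex of the larvae was not given. Values are normalized counts, that is, reads per gene divided by a size factor for each sample, and fold changes are on the log2(normalized count + 1) scale as *ecd1* minus *w1118*.

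Between 74581798 and 107943245 reads were assigned to genes in the *w1118* samples, and between 78438192 and 118102006 in the *ecd1* samples. *ecd* itself had 2085, 1563 and 1565 normalized counts in *w1118* and 2111, 2218 and 2397 in *ecd1* (log2 fold change 0.38, limma adjusted p = 0.0769), and since the allele is a missense mutation this level does not check the labels. *w1118* replicate 1 stood apart: 6 salivary glue genes, which are switched on late in the third instar, summed to 642244 normalized counts there and to 140 to 479 in each of the other 5 samples. The mean insert size of the libraries was 161.5 ± 1.37 (SD, n = 3) in *w1118* and 138.7 ± 0.503 (SD, n = 3) in *ecd1*, without overlap, so that insert size and genotype cannot be told apart. Of 12930 genes tested, 35.1% passed an adjusted p below 0.05, 16% as risen and 19.1% as fallen in *ecd1*.

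Of the 32 peptide genes, 29 had a mean of at least 10 normalized counts and were tested. *Tk* and *Nplp2* rose, both by more than 2-fold, none fell, and 27 did not pass (limma, Benjamini-Hochberg adjusted p below 0.05 over all 12930 genes). With the replicate number as a block in the same fit, 4 rose, *CCHa1* and *Mip* besides these, and none fell. The 2 of 29 that rose are 6.90% of those tested, beside 16% of all genes (5.1% at 2-fold or more), and no fall among 29 stands beside 19.1% of all genes (14.7% at 2-fold or more). At an unadjusted p below 0.05 there were 7 peptide genes (*Tk*, *Nplp2*, *CCHa1*, *AstC*, *Mip*, *Ms* and, as the single lower one, *amn*), beside 46.7% of all genes tested. On the recovered reads, edgeR and DESeq2 each called 3 peptide genes as risen, *Tk*, *Nplp2* and *CCHa1*, and 0 as fallen, while they called 35.9% and 42.4% of all genes in either direction. In whole larvae, fewer cells of a type and less RNA per cell cannot be told apart, and this holds for every value below.

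**Figure D1:**
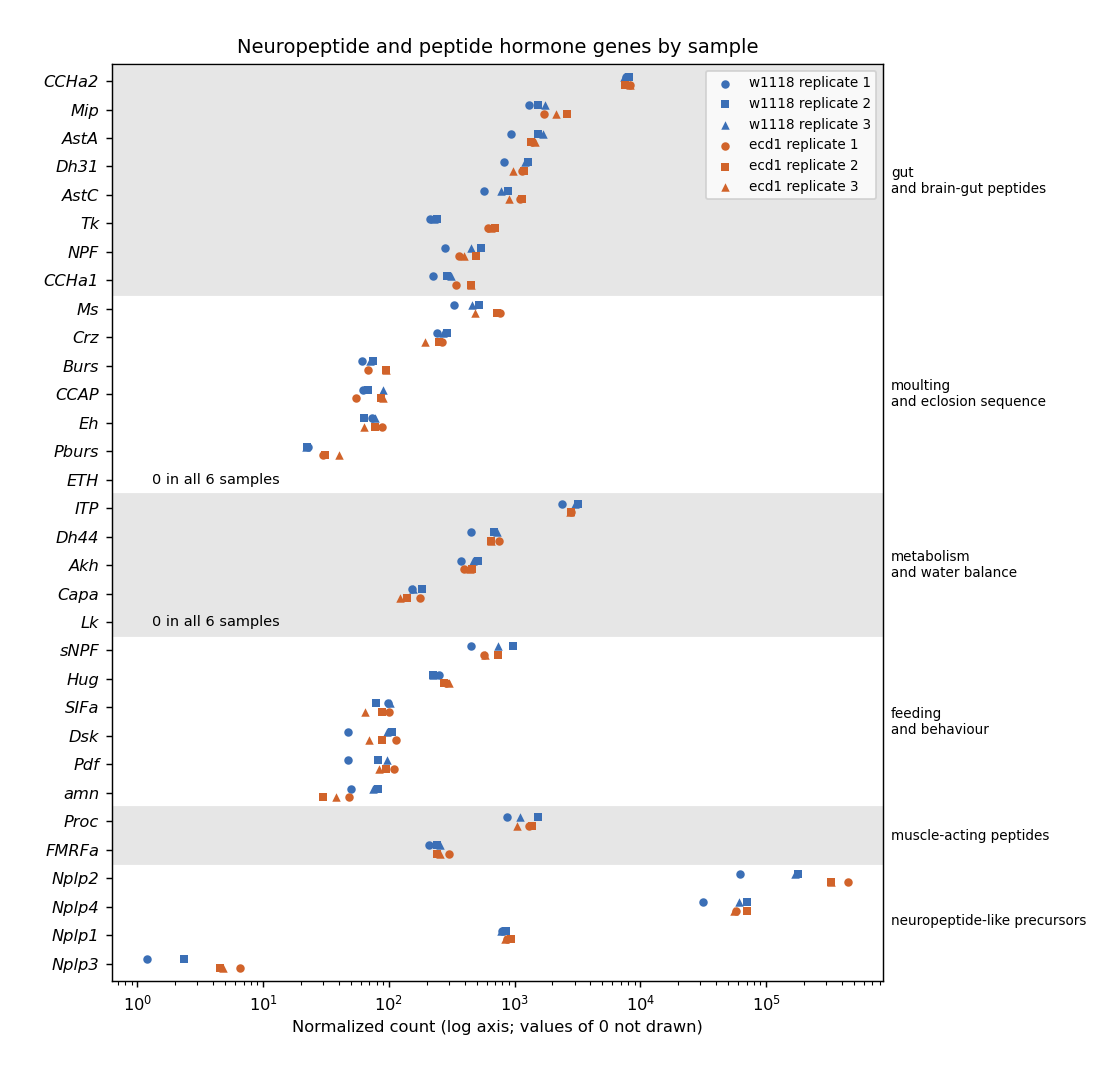
Normalized count (log axis) of each of the 32 peptide genes in each of the 6 samples, with *w1118* in blue, *ecd1* in orange, a marker shape for each replicate number and the genes grouped by role. *Nplp2* and *Nplp4* lie far to the right of the other genes, *Tk* and *Nplp2* are separated by genotype, and *Lk* and *ETH* are at 0 in all 6 samples.

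The peptide genes spanned a wide range of levels. Per kilobase of exon, the mean over the 6 samples ran from 13.6 normalized counts for *amn* to 416063 for *Nplp2*, a 30543-fold range among the 29 tested. *Nplp2* and *Nplp4*, whose names come from neuropeptide-like sequences in their precursors, together held 89.8% of all normalized counts of the 32 genes in *w1118* and 94.7% in *ecd1*. In *w1118*, *Nplp2* stood at 225763 ± 107401 normalized counts per kilobase and *Nplp4* at 103446 ± 38554 (SD, n = 3), and the samples of these 2 genes overlapped. Both were above *CCHa2*, a nutrient-dependent peptide of fat body and gut that acts on the insulin-producing cells, at 5300 ± 288 per kilobase. *Mip*, the precursor of the myoinhibitory peptides, followed at 1097 ± 159 per kilobase.

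Below *Mip* the order in *w1118* was much closer. The next 15 genes ran from *AstA* at 950 ± 268 to *Hug* at 227 ± 13.2 normalized counts per kilobase, and each neighbouring pair from *Mip* to *Hug* overlapped over the 3 samples. *SIFa*, *FMRFa*, *Dsk*, *Tk*, *Pdf*, *Burs* and *Eh* formed a lower stretch, from 177 ± 23.4 to 102 ± 9.88 per kilobase, again without a gap between neighbours. *CCAP* (58.6 ± 11.5), *Pburs* (41.1 ± 0.446) and *amn* (17.5 ± 4.30) were each separated from the gene above. Of the 28 neighbouring pairs, 22 overlapped and 6 did not. The summed exons of the precursor genes were short, with a median length of 945 bases beside 1798 bases over all genes tested. Of the 32 genes, 15 lie on chromosome arm 3R.

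Among the peptides made in the gut or shared by gut and brain, *Tk* changed most. *Tk* (FBgn0037976, arm 3R, 11994175 to 12005473, minus strand, BDGP6) encodes the tachykinins, which are released by brain neurons and by enteroendocrine cells. It had 214, 241 and 230 normalized counts in the *w1118* samples, in the order of their numbers, and 614, 704 and 648 in the *ecd1* samples. Every *ecd1* sample was above every *w1118* sample, and within each genotype the samples were close together. *Tk* rose by 2.86-fold (95% interval 2.28 to 3.59; log2 fold change 1.52 ± 0.14, SE, n = 3 per genotype; limma adjusted p = 0.00218). Leaving out any 1 sample gave log2 fold changes between 1.46 and 1.56 with adjusted p-values between 0.00334 and 0.0144, so the call did not rest on 1 library.

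The other 7 genes of this class did not pass, beside 35.1% of all genes that did. *CCHa1*, a peptide of enteroendocrine cells, came nearest, with 224, 289 and 314 normalized counts in *w1118* and 345, 454 and 451 in *ecd1*, again without overlap. Its log2 fold change was 0.60 ± 0.20 (SE, limma adjusted p = 0.0563). The adjusted p was 0.0232 in limma with the replicate number as a block, 0.0458 in edgeR and 0.0211 in DESeq2, and it ran from 0.0211 to 0.182 over the 14 alternatives, so this gene sat at the threshold. *AstC*, an allatostatin of neurons and enteroendocrine cells, had 570, 891 and 782 normalized counts in *w1118* and 1104, 1144 and 895 in *ecd1*, where the highest *w1118* and the lowest *ecd1* sample were almost equal (log2 fold change 0.50 ± 0.20, SE, limma adjusted p = 0.0888).

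*Mip* had 1303, 1542 and 1747 normalized counts in *w1118* and 1707, 2607 and 2121 in *ecd1*, with overlap between *w1118* replicate 3 and *ecd1* replicate 1. Its log2 fold change was 0.48 ± 0.19 (SE), with a limma adjusted p of 0.0879 that became 0.0445 with the replicate block and 0.0458 without *ecd1* replicate 1. The remaining 4 gut and brain-gut peptides had mean levels that were nearly equal in the 2 genotypes. The log2 fold change was 0.05 for *AstA*, which restrains feeding and gut movement, 0.01 for *Dh31*, a diuretic peptide that also drives gut contraction, 0.02 for the feeding peptide gene *NPF* and 0.05 for *CCHa2*. For *CCHa2* the 95% interval was narrow, from 0.897-fold to 1.20-fold, and for *NPF* it was wide, from 0.651-fold to 1.58-fold.

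**Figure D2:**
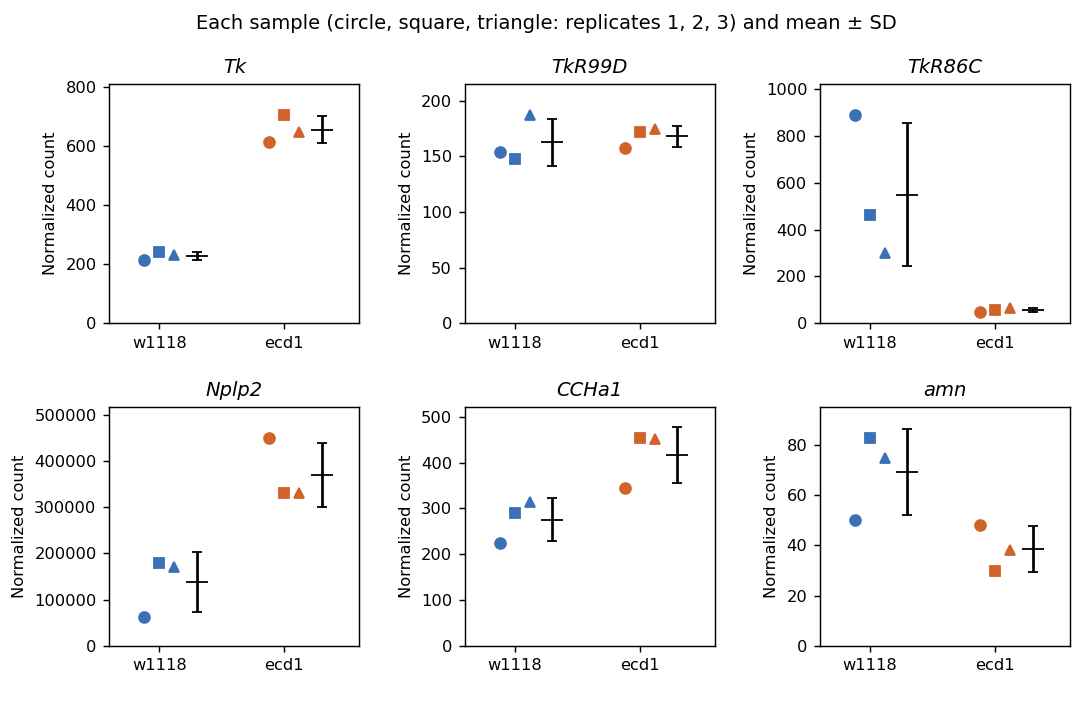
Normalized counts (linear axes from 0) of *Tk*, the tachykinin receptor genes *TkR99D* and *TkR86C*, *Nplp2*, *CCHa1* and *amn* in each sample, with the mean ± SD of 3 samples beside the points. *Tk* is near 230 in *w1118* and between 614 and 704 in *ecd1*, *TkR99D* overlaps between the genotypes, and *TkR86C* falls to 47.1 to 64.2 in *ecd1*.

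The tachykinin receptors were measured beside their ligand. *TkR99D*, a tachykinin receptor, had 154, 147 and 187 normalized counts in *w1118* and 157, 172 and 175 in *ecd1*, with full overlap (log2 fold change 0.05 ± 0.18, SE, limma adjusted p = 0.840). *TkR86C*, whose product responds to natalisin and to some tachykinins, had 889, 461 and 300 normalized counts in *w1118* and 47.1, 55.0 and 64.2 in *ecd1*. The *w1118* samples differed by nearly 3-fold among themselves, yet the lowest of them was well above every *ecd1* sample. *TkR86C* fell by 3.15 ± 0.40 on the log2 scale (SE, limma adjusted p = 0.00431), and without *w1118* replicate 1 it fell by 2.73.

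*Nplp2* (FBgn0287423, arm 3L, 13356376 to 13357223, plus strand, BDGP6) was the most abundant transcript of the set in both genotypes. It had 62261, 180141 and 170745 normalized counts in the *w1118* samples, in the same order, and 449395, 329541 and 330707 in the *ecd1* samples. The genotypes did not overlap, but *w1118* replicate 1 was at 0.355 of the mean of the other *w1118* samples. *Nplp2* rose by 2.95-fold (95% interval 1.48 to 5.85; log2 fold change 1.56 ± 0.42, SE, limma adjusted p = 0.0281). Without *w1118* replicate 1 the log2 fold change was 1.06 (adjusted p = 0.0105), and the call was lost without *ecd1* replicate 1, 2 or 3 (log2 fold change 1.41, 1.63 and 1.63; adjusted p = 0.0811, 0.0751 and 0.0607).

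The other neuropeptide-like precursors did not pass. *Nplp4* had 31745, 70742 and 61371 normalized counts in *w1118* and 58072, 71053 and 55675 in *ecd1*, where *w1118* replicate 1 was again the low sample and the rest overlapped (log2 fold change 0.25 ± 0.30, SE, limma adjusted p = 0.547). *Nplp1* was the steadiest of the class, at 773 to 849 normalized counts in *w1118* and 841 to 942 in *ecd1* (log2 fold change 0.14 ± 0.11, SE). *Nplp3* was below the mean of 10 normalized counts set for the test, with 1.19, 2.36 and 0 normalized counts in *w1118* and 6.60, 4.58 and 4.76 in *ecd1*, which is 0 to 7 reads a sample. In the fit without that filter it was called as risen, with a log2 fold change of 1.68 ± 0.51 (SE, limma adjusted p = 0.0458), which made 3 peptide genes that rose, all by at least 2-fold.

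**Figure D3:**
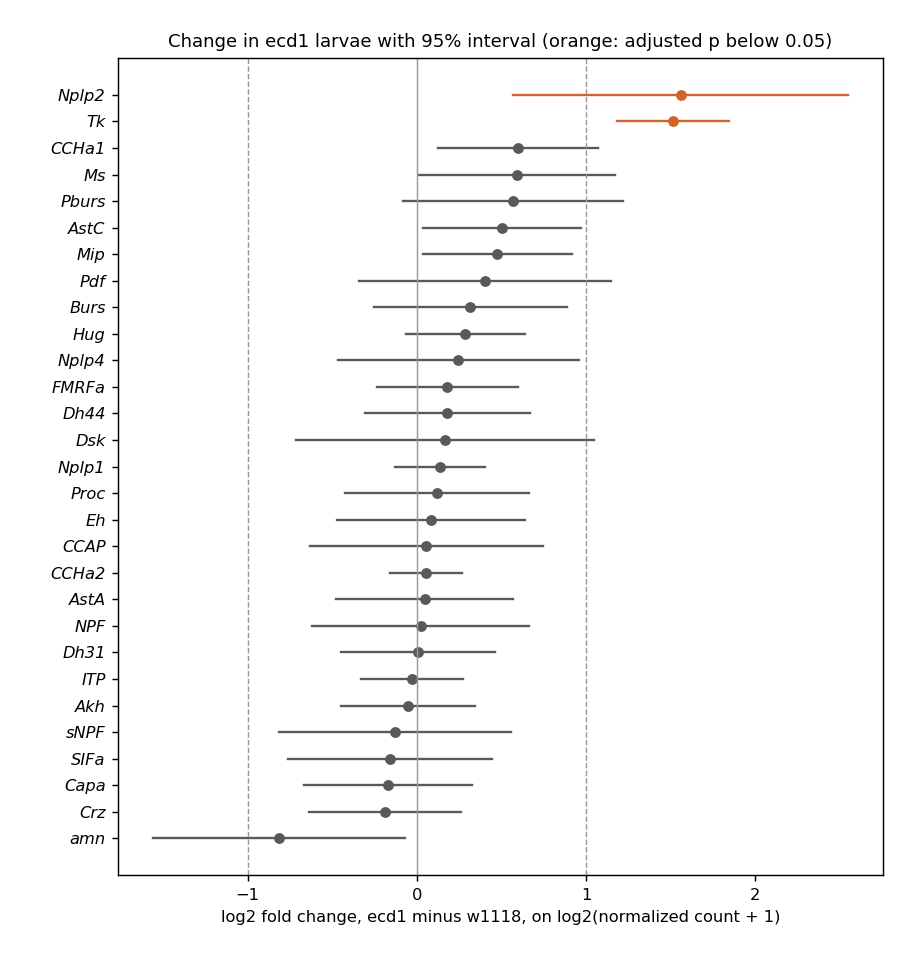
Log2 fold change (*ecd1* minus *w1118*) of the 29 peptide genes tested, with 95% intervals from limma, ordered by the estimate. *Tk* and *Nplp2* lie above a 2-fold change, *amn* has the lowest estimate at -0.82, and 21 of the 29 intervals stay inside a 2-fold change in both directions.

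None of the 6 genes tested of the moulting and eclosion sequence passed in limma, edgeR or DESeq2, which called 35.1%, 35.9% and 42.4% of all genes. In limma 1 of them, *Ms*, had an unadjusted p below 0.05, beside 46.7% of all genes. Ecdysis, the shedding of the cuticle, is triggered by ecdysis-triggering hormone from the Inka cells and by eclosion hormone. It continues through crustacean cardioactive peptide, myosuppressin and the 2 subunits of the hormone bursicon. The corazonin gene *Crz* was grouped with these genes here. *Pburs*, which encodes a bursicon subunit, had 22.6, 22.4 and 22.1 normalized counts in *w1118* and 30.2, 31.3 and 40.5 in *ecd1*, without overlap (log2 fold change 0.57 ± 0.27, SE, limma adjusted p = 0.147, and 0.0295 in a limma fit without a trend). *Burs*, the gene of its partner subunit, had 60.7, 74.3 and 71.3 normalized counts in *w1118* and 68.8, 95.5 and 95.2 in *ecd1*, with overlap at *ecd1* replicate 1 (log2 fold change 0.32 ± 0.24, SE).

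*Ms*, the myosuppressin precursor, had 330, 519 and 457 normalized counts in *w1118* and 762, 723 and 488 in *ecd1*, and *ecd1* replicate 3 lay below *w1118* replicate 2 (log2 fold change 0.59 ± 0.24, SE, limma adjusted p = 0.102). The other genes of the sequence were closer to no difference, with log2 fold changes of 0.08 for the eclosion hormone gene *Eh*, 0.06 for *CCAP* and -0.19 for *Crz*. *Eh* and *CCAP* were measured at 54.7 to 89.3 normalized counts, with intervals from 0.721-fold to 1.56-fold for *Eh* and from 0.645-fold to 1.67-fold for *CCAP*.

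None of the 4 genes tested among the peptides of energy stores and water balance had an unadjusted p below 0.05 in limma. Over all genes the share was 46.7%. *Akh*, the adipokinetic hormone gene of the corpora cardiaca, which mobilizes stored fat and sugar, had 375, 511 and 470 normalized counts in *w1118* and 395, 462 and 441 in *ecd1*, a complete overlap (log2 fold change -0.05 ± 0.17, SE, limma adjusted p = 0.826). *ITP*, the ion transport peptide gene, was within 2734 to 2807 normalized counts in *ecd1* and at 2383 to 3196 in *w1118* (log2 fold change -0.03 ± 0.13, SE). The diuretic hormone gene *Dh44* gave a log2 fold change of 0.18 ± 0.21 (SE), and *Capa*, whose peptides act on the Malpighian tubules, gave -0.17 ± 0.21 (SE).

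Of the 6 peptide genes of feeding and behaviour, *amn* and *Hug* did not overlap between the genotypes, in opposite directions. Over all genes tested, 53.5% did not overlap. *amn*, which encodes an amnesiac peptide related to a vertebrate pituitary peptide and required for memory, had 49.99, 82.6 and 74.6 normalized counts in *w1118* and 48.1, 29.8 and 38.1 in *ecd1*. *w1118* replicate 1 lay just above *ecd1* replicate 1, and the other *w1118* samples lay well above (log2 fold change -0.82 ± 0.31, SE, limma adjusted p = 0.0837). Without *w1118* replicate 1 the value was -1.03 with an adjusted p of 0.0394, the lowest of the range of 0.0394 to 0.244 over the 14 alternatives, and *amn* was then called as fallen by at least 2-fold.

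*Hug*, whose peptides suppress feeding, had 250, 226 and 226 normalized counts in *w1118* and 287, 273 and 299 in *ecd1* (log2 fold change 0.29 ± 0.15, SE, limma adjusted p = 0.175). The remaining 4 genes overlapped between the genotypes. The log2 fold change was -0.13 for *sNPF*, the short neuropeptide F gene that promotes feeding, 0.17 for *Dsk*, the cholecystokinin-like satiety peptide gene, 0.40 for the circadian peptide gene *Pdf* and -0.16 for *SIFa*. Their intervals were wide, up to 0.609-fold to 2.06-fold for *Dsk*, whose *w1118* replicate 1 had 47.6 normalized counts beside 105 and 97.5 in the others. The muscle-acting peptide genes *Proc* (proctolin) and *FMRFa* gave 0.12 ± 0.23 and 0.18 ± 0.18 (log2 fold change, SE).

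*Lk*, the precursor of the diuretic leucokinin, and *ETH*, the precursor of ecdysis-triggering hormone, had 0 reads in all 6 samples. A count of 0 allows up to 3 assigned reads a sample, or 2.29 to 3.57 normalized counts. This bound does not cover reads that were left unassigned to a gene. Both genes share nearly all of their exon bases with an antisense RNA on the opposite strand, 93.0% of 626 bases for *Lk* with *asRNA:CR44843* and 90.5% of 755 bases for *ETH* with *asRNA:CR43257*. The libraries carry no strand, since a fraction of 0.5 to 0.503 of the reads lay on 1 strand in every sample, so reads from either gene and its antisense partner cannot be told apart. The antisense genes had counts, at 4.72 to 13.1 normalized counts for *asRNA:CR44843* and 33.6 to 59.5 for *asRNA:CR43257*.

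The same was seen over the whole annotation. Of 758 genes that share at least 90% of their exon bases with another gene, 656 (86.5%) were at 0 in all 6 samples, beside 5.25% of 14673 genes that share under 10%. Among the 196 genes with at least 90% but under 100% shared, as for *Lk* and *ETH*, 49.0% were at 0. Whether the larvae lacked these transcripts was therefore not measured, and the level of *Lk* and *ETH* is not read as absence. 4 of the other 30 peptide genes share some exon bases with a neighbour, *SIFa* (21.1%), *ITP* (6.32%), *CCAP* (6.25%) and *amn* (3.54%), and the part of this in their levels per kilobase was not tested.

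**Figure D4:**
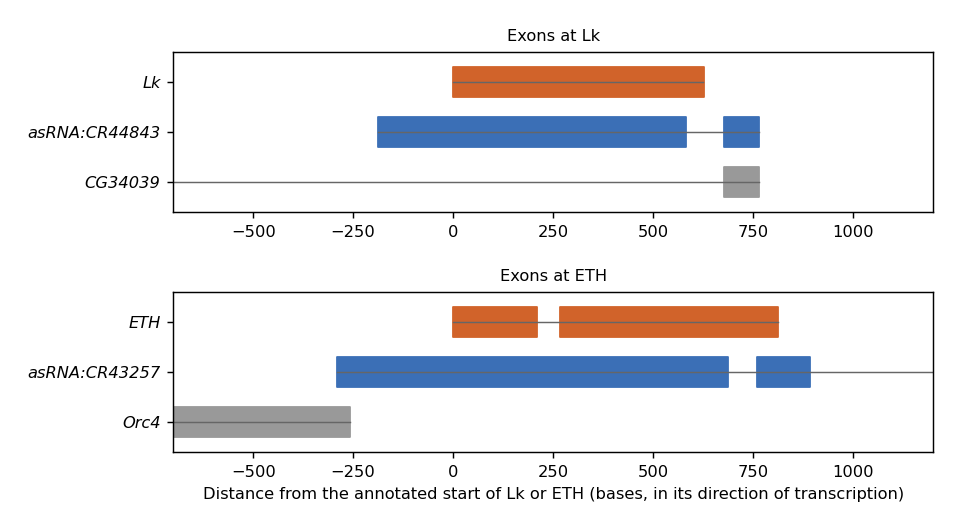
Exons of *Lk* and *ETH* (orange), of the antisense RNAs that cover them (blue) and of further neighbouring genes (grey), drawn to scale in bases from the annotated start of each peptide gene in its direction of transcription. The antisense exons cover 93.0% of the exon bases of *Lk* and 90.5% of those of *ETH*.

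Many peptide genes were low in a single control sample. *w1118* replicate 1 was the lowest *w1118* sample in 23 of 29 peptide genes (79.3%), beside 44.9% of all genes tested, and the lowest of all 6 samples in 19. Its median ratio to the mean of the other *w1118* samples was 0.765 over the 29 peptide genes and 0.962 over all genes. It was also the lowest *w1118* sample in 23 of 34 receptor genes (67.6%) and in 5 of 5 midgut markers, so this was not particular to the peptide genes. It was not shared by every list. The share was 62.5% of vesicle genes, 60% of peptidase genes, and 50% of neuron markers and of ecdysone response genes. It was 42.9% of glia markers and of other peptide genes, 36.4% of processing genes, 20% of enteroendocrine markers and 0% of glue genes. The low peptide genes spanned the roles, with ratios of 0.470 for *Dsk*, 0.481 for *Nplp4*, 0.525 for *sNPF*, 0.537 for *Pdf*, 0.567 for *NPF* and 0.587 for *AstA*. *CCHa2* (0.981) and *Nplp1* (0.983) were level in this sample, and *Hug* (1.10), *SIFa* (1.09) and *Eh* (1.05) were slightly above. It is also the sample with the glue gene transcripts, and the part of its stage in these ratios was not tested.

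This sample set the direction of the middle of the set. The mean level was higher in *ecd1* for 22 of the 29 genes and lower for 7, beside 50.6% of all genes higher, and the median log2 fold change was 0.14, beside 0.01 over all genes. Without *w1118* replicate 1 the median over the 29 genes was -0.03, and without any other single sample it lay between 0.10 and 0.23. The estimates of 8 genes turned from above 0 to below 0 when this sample was left out, and none of the 8 was called in either fit. They were *AstA* (to -0.21), *Dh31* (-0.19), *NPF* (-0.25), *CCAP* (-0.06), *Dh44* (-0.03), *Dsk* (-0.19), *Proc* (-0.08) and *Nplp4* (-0.11).

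**Figure D5:**
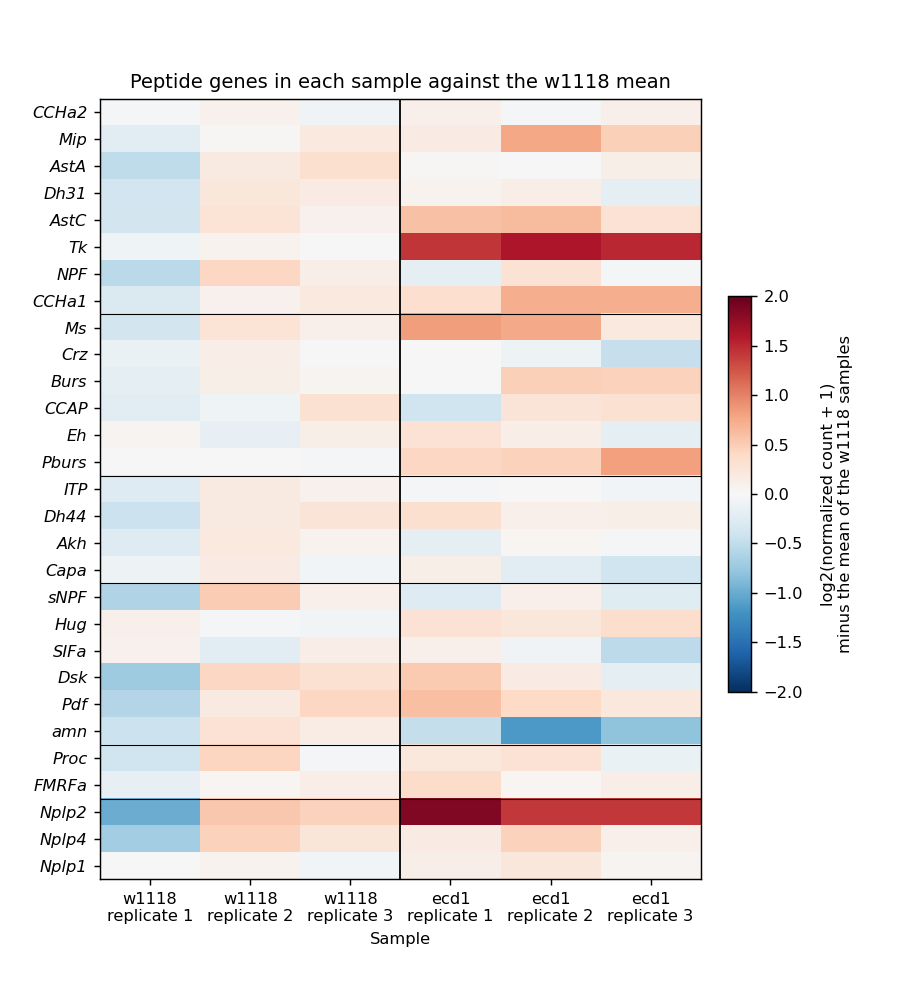
Difference of log2(normalized count + 1) in each sample from the mean of the 3 *w1118* samples (colour, from -2 to 2) for the 29 peptide genes tested, ordered by role. The column of *w1118* replicate 1 is mostly blue, with a median of -0.26, and the rows of *Tk* and *Nplp2* are dark red in all 3 *ecd1* samples.

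The size of the differences was small beside the transcriptome. The median absolute log2 fold change was 0.18 over the 29 peptide genes and 0.41 over all genes tested, while the median standard error was 0.22 and 0.19. The 95% interval stayed inside a 2-fold change in both directions for 21 of the 29 peptide genes (55.4% of all genes), and the genotypes did not overlap for 7 of the 29 (24.1%), *Nplp2*, *AstC*, *CCHa1*, *Tk*, *Hug* and *Pburs* higher and *amn* lower, beside 53.5% of all genes. The peptide genes were also less abundant, with a median of 442 normalized counts beside 1054 over all genes.

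Other peptide genes were read from a second list of 11, of which 7 were tested. *CNMa* and *Ptth* fell, *Orcokinin* rose and 4 did not pass, so that 42.9% were called beside 35.1% of all genes. *CNMa*, a peptide with its own receptor in insects, had 631, 1040 and 1114 normalized counts in *w1118* and 176, 90.9 and 165 in *ecd1*, far apart, and fell by 2.69 ± 0.33 on the log2 scale (SE, limma adjusted p = 0.00416). *Ptth*, the prothoracicotropic hormone gene that drives ecdysone synthesis in the prothoracic gland, had 84.5, 97.9 and 135 normalized counts in *w1118* and 45.3, 50.4 and 49.97 in *ecd1* (log2 fold change -1.08 ± 0.25, SE, limma adjusted p = 0.0182). Its call was lost, with adjusted p-values up to 0.0672, in 3 of the fits that left out 1 sample, those of *w1118* number 3 and *ecd1* numbers 1 and 2.

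*Orcokinin* had 338, 409 and 469 normalized counts in *w1118* and 661, 733 and 562 in *ecd1* (log2 fold change 0.69 ± 0.18, SE, limma adjusted p = 0.0255), a call that was lost, with adjusted p-values up to 0.102, when *w1118* number 2 or *ecd1* number 1 or 2 was left out. With the 11 genes of this list, the number that rose was 2 without *w1118* replicate 1, and the number that fell was 1 when *w1118* number 3 or *ecd1* number 1 or 2 was left out.

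The receptor genes of the peptides were all measured, 34 of 34. Of them 4 rose, 2 fell and 28 did not pass, so that 17.6% were called beside 35.1% of all genes. *CCAP-R*, the receptor gene for crustacean cardioactive peptide, had 30.9, 49.5 and 35.2 normalized counts in *w1118* and 64.1, 88.6 and 102 in *ecd1* (log2 fold change 1.12 ± 0.30, SE, limma adjusted p = 0.0287). *Proc-R*, the proctolin receptor gene, rose by 0.62 ± 0.15 on the log2 scale (SE, limma adjusted p = 0.0217). The other 2, *AstA-R1* and *AstC-R1*, lie below a mean of 50 normalized counts and were named after their values were seen. They rose by 1.31 and 1.09 on the log2 scale (limma adjusted p = 0.0219 and 0.0352), and for *AstC-R1* the adjusted p was 0.0592 with the replicate block, which added a call of *NPFR*, the neuropeptide F receptor gene (log2 fold change 0.62, adjusted p = 0.0435).

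These rises were fragile. Their number was 0 when *w1118* number 3 or *ecd1* number 2 was left out, 1 when it was *ecd1* number 3 and 2 when it was *ecd1* number 1, and *AstC-R1* lost its call without any 1 of the 6 samples. The falls were *TkR86C* and *CrzR*, the corazonin receptor gene, which had 578, 611 and 565 normalized counts in *w1118* and 376, 248 and 334 in *ecd1* (log2 fold change -0.89 ± 0.19, SE, limma adjusted p = 0.0121). Both falls held without any 1 sample, and 5 receptor genes were called as fallen without *w1118* replicate 1. The ligand genes of the changed receptors, other than *Tk*, did not pass: *AstA*, *AstC*, *CCAP*, *Proc*, *Crz* and *natalisin*. For *natalisin*, from the second peptide list, the log2 fold change was 0.11 ± 0.25 (SE, limma adjusted p = 0.749).

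The machinery that makes, packs and clears the peptides was counted in the same fit. Of 11 processing genes, *Fur2*, a furin-type protease gene, rose by 0.52 ± 0.10 and *Phm*, the gene of the enzyme that begins the amidation of peptide ends, rose by 0.35 ± 0.08 on the log2 scale (SE, limma adjusted p = 0.0103 and 0.0179), and 9 did not pass, so that 18.2% were called beside 35.1% of all genes. A single rise, 1 of the 11, was left when *w1118* number 2 or 3 or *ecd1* number 2 was left out. Of 8 dense-core vesicle genes 25% were called, beside the same 35.1%. *IA-2* rose by 0.44 (limma adjusted p = 0.0137), a call that was lost without *ecd1* replicate 2. *Cadps*, which primes vesicles for release, fell by 0.46 (limma adjusted p = 0.0403), and this call was lost with the replicate block, without a trend, and when number 2 or 3 of either genotype was left out.

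Neprilysins are peptidases that degrade signalling peptides, and 5 neprilysin genes, *Nep1* to *Nep5*, were listed here. Of these *Nep1* rose by 0.67, *Nep4* fell by 0.71 and *Nep5* fell by 1.04 on the log2 scale (limma adjusted p = 0.00927, 0.0174 and 0.0230). Thus 60% of the 5 listed genes were called, beside 35.1% of all genes. The falls numbered 0 when *w1118* number 3 or *ecd1* number 1 or 2 was left out, and 1 when it was *w1118* number 2.

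Markers of neurons, enteroendocrine cells, the midgut and glia were read as sums. The 10 neuron markers summed to 20186 to 21412 normalized counts in *w1118* and 19698 to 22466 in *ecd1*, with overlap. Of the 10, *brp*, *Syn* and *para* rose by 0.38, 0.50 and 0.56 on the log2 scale (limma adjusted p = 0.0238, 0.0329 and 0.0468) and 7 did not pass, so that 30% were called, all as risen, beside 16% of all genes that rose. The call of *para* was lost with the replicate block (adjusted p = 0.0549). The rises numbered 0 when *w1118* number 3 or *ecd1* number 1 or 2 was left out, and 1 when it was *w1118* number 2 or *ecd1* number 3. The 5 enteroendocrine markers summed to 3175 to 5541 in *w1118*, with replicate 1 the highest, and 2927 to 3872 in *ecd1*. Of these *tap* fell by 1.46 on the log2 scale (limma adjusted p = 0.00581), so that 20% were called beside 35.1% of all genes. The other 4 did not pass, with log2 fold changes of -0.16 for *pros*, -0.01 for *Ptx1*, -0.59 for *Poxn* and -1.68 for *sc*. For *sc* the *w1118* samples had 143, 11.8 and 17.2 normalized counts, with replicate 1 far above the others. Replicate 1 was also the highest for *pros* (3486, 1149 and 1314) and *Poxn* (145, 77.9 and 59.8). It was the lowest *w1118* sample for 1 of the 5, *Ptx1*. Whether these markers stand for enteroendocrine cells alone in whole larvae was not tested. For the 5 midgut markers the sums were 287678 to 431158 and 351937 to 375421 in the same order of genotypes. The 7 glia markers summed to 51480 to 69922 in the controls and 43288 to 47050 in *ecd1*, without overlap. Of these *nrv2* and *Eaat1* fell (28.6% called, beside 35.1% of all genes) and 5 did not pass, among them *Gs2*, which held most of the sum (log2 fold change -0.52, limma adjusted p = 0.0529), and *repo* and *moody*, with estimates above 0 (0.38 and 0.09). Every marker of these 4 lists had counts. The 10 genes of the ecdysone response summed to 20668 to 45750 in the controls, with replicate 1 the highest, and 15582 to 19178 in *ecd1*, also without overlap, but their median log2 fold change was -0.02. None of the 10 passed in limma, beside 35.1% of all genes, and 2 had an unadjusted p below 0.05, beside 46.7%. None passed in edgeR and 3 fell in DESeq2, beside 35.9% and 42.4% of all genes called in either direction. With the replicate block *br* fell and *Eip78C* rose (limma adjusted p = 0.0153 and 0.0406). The part of cell composition in the levels of *Tk* and *Nplp2* was not tested.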

How the data were processed

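Total RNA of 3 *w1118* and 3 *ecd1* samples was sequenced as 100-base read pairs. The authors aligned reads to dm6 with TopHat2 2.0.10, assigned them to genes with featureCounts 1.6.4 and scaled the counts with DESeq2. The strand setting and the DESeq2 version are not given in the sources used here. The deposited normalized counts are a signal per gene and sample, a count divided by a size factor. The deposited quality report gives the fraction of reads on 1 strand and other library values such as insert size, for which no unit is stated. The authors' own tables of fold changes, p-values, enriched terms and splicing changes were not used, so junctions of peptide genes were not described.

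Whole reads were recovered from the steps between low values (100% whole within 0.05 of a read), and the value of 1 read gave each sample's floor. Intervals and floors cover counting or sample spread only.

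Genes with a mean of at least 10 normalized counts were tested with limma 3.58.1 (trend, genotype only) in R 4.3.3 on log2(normalized count + 1), with Benjamini-Hochberg adjustment over all 12930 genes. An exact permutation test of 3 against 3 cannot go below p = 0.1. edgeR 4.0.16 and DESeq2 1.42.0 were run on the recovered reads as alternatives, besides pseudocounts of 0.5 and 5, no filter, a mean of at least 50, no trend, a replicate block and leaving out each sample. The limma step was also run on simulated counts drawn independently for each sample. These lack the deviations shared by same-numbered samples, and no result here rests on them. Exons came from the Ensembl release 115 annotation of the same assembly.

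Same-numbered samples deviated together from their genotype means (correlations of 0.209, 0.232 and 0.225, against -0.274 to 0.0541 for different numbers). The numbers were therefore treated as pairs in an alternative fit. Deviations from a mean of 3 samples depend on each other, so these correlations cannot establish a pairing. The main fit has no block, as in the study, and the fit with the block is given beside each call it changes. This pairing comes from the values, since neither labels nor methods say what the numbers stand for. The paper calls the samples biological triplicates.

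Members, lists and tests were chosen with earlier results of these data known. Every peptide gene is reported. From each other list, the genes that passed at a mean of at least 50 were ranked by the size of their change and up to 4 were named, with the receptors of peptide genes changed at least 2-fold and *ecd*. The remaining genes that passed were named after their values were seen. *IA-2* was matched by a synonym, and a vesicle gene and a peptide gene of the lists were left out, as unmatched and as a repeat of *SIFa*.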

Additional observations from a re-analysis of the deposited data

How the results depend on the processing

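Of the 29 peptide genes tested, 11 kept their direction and their side of the threshold under every alternative run for them, *Tk* among them. The sign of the estimate turned in at least 1 alternative for 13 others, none of them called, and the call changed for 5 (*CCHa1*, *Mip*, *Pburs*, *amn* and *Nplp2*). The peptide genes that rose numbered 4 with the replicate block and 1 to 2 when a sample was left out, and those that fell 0 to 1. At 2-fold these ranges were 1 to 2 and 0 to 1. Over all genes, leaving out a sample gave 891 to 2437 that rose and 1475 to 2741 that fell, and the median log2 fold change of the peptide genes ran from -0.034 (without *w1118* replicate 1) to 0.23. In the same fits 0 to 3 receptor genes rose and 2 to 5 fell, 1 to 2 processing genes rose, 0 to 1 vesicle genes rose and 0 to 1 fell, 0 to 2 peptidase genes fell, 0 to 2 genes of the second peptide list rose and 1 to 2 fell, and 0 to 3 neuron markers rose. A mean of at least 50 left 2 receptor genes that rose, since fewer genes were tested. The vesicle genes that fell numbered 0 without a trend and 0 with the replicate block. Over the peptide genes and the lists, the block added the calls of *CCHa1*, *Mip*, *NPFR*, *br* and *Eip78C*, took those of *AstC-R1*, *Cadps* and *para*, and changed no other. Without a filter *Nplp3* was called as risen, and 3 peptide genes rose. The cause was not tested for any of these changes other than the filter.

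Precision was limited by 3 samples a genotype. *Lk* and *ETH*, at 0 reads in all samples, could not be tested, and *Nplp3* was tested without a filter only.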
